A study of Mus musculus with 30 samples.

Results

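The TGF-beta ligands, their receptors and the latent TGF-beta binding proteins form a set of 10 genes, described here in mouse tail-tendon fibroblasts after actomyosin inhibition. The genes were chosen by name, with earlier results of these data known. They are the ligands Tgfb1, Tgfb2 and Tgfb3, the receptors Tgfbr1, Tgfbr2 and Tgfbr3, and the latency proteins Ltbp1, Ltbp2, Ltbp3 and Ltbp4. All 10 are listed among the 35973 genes of the deposited blebbistatin table and the 35972 genes of the Y27632 table, and 10 of 10 passed the filter on low values, which asked for at least 10 normalised counts on average in a table. Of 16367 sites in 5 deposited lists of genomic sites, 9 were annotated to one of these genes.

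The cells were primary fibroblasts from tail tendon, labelled wildtype, and were treated in medium with 0.1% serum. Poly(A) RNA was sequenced from 3 libraries each of cells given the solvent DMSO, 10 µM blebbistatin, which blocks the motor protein non-muscle myosin II, or Y27632 at 30 µM, a kinase inhibitor. Open chromatin was measured by ATAC in 3 libraries of each of these treatments. In a further 12 genomic DNA libraries, 3 per group, cells received neither drug, blebbistatin at 10 µM, doxycycline at 10 ng/mL, or both. For these 12 libraries the labels name no assay in particular and do not say what doxycycline induced. The labels give no age, sex, strain or treatment time. They do not say whether the libraries of a group came from separate cultures or animals, so p-values measure the spread between libraries, which may be technical.

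TGF-beta is secreted as an inactive complex in which the growth factor stays bound to its own propeptide. A latent TGF-beta binding protein ties this complex to fibrillin and fibronectin fibres, from which integrins, by pulling on the propeptide, or proteases can release it. The released ligand is bound by the type II receptor, which activates the type I receptor, and the SMAD proteins then carry the signal to the nucleus. In tendon the pathway is known for its part in tendon progenitor formation and in matrix production and scarring.

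The 9 RNA libraries held between 23375386 and 37061737 reads in genes. All 11 tendon fibroblast markers checked, including Scx, Tnmd and Mkx, were detected at a mean of at least 10 reads. Of them, limma called 4 higher and 4 lower with blebbistatin, and 6 higher and 0 lower with Y27632. Over all genes tested it called 26.1% higher and 26.9% lower with blebbistatin, and 18.1% and 17.8% with Y27632. The marker counts that follow stand beside the same shares. Of 5 epidermal markers, 0 were detected. Of 5 chondrocyte markers 2 were detected, Col2a1 and Sox9, and 1 was called higher with each inhibitor. Of 5 skeletal muscle markers 1 was detected, Acta1, which was not called with either inhibitor. The 6 macrophage markers were also detected, and limma called 6 of 6 higher with each inhibitor. Their summed level was 214 to 236.8 CPM (reads of the markers scaled to the library's total) in DMSO, 326.2 to 362.7 CPM with blebbistatin and 314.5 to 356.9 CPM with Y27632, led by Lyz2. Of the 6 endothelial markers 4 were detected, with a summed level of 119 to 120.4 CPM in DMSO, 81.05 to 91.65 CPM with blebbistatin and 108 to 113.7 CPM with Y27632. That sum is nearly all Tek, with 2685 to 3134 reads in DMSO and 1829 to 2442 with blebbistatin. These read numbers are not scaled to the library's total. Those of the other detected endothelial markers were, in DMSO and with blebbistatin, 51 to 70 and 74 to 107 for Cdh5, 10 to 16 and 18 to 28 for Kdr, and 26 to 58 and 63 to 88 for Vwf. Of the 4 markers, limma called 1 higher and 1 lower with blebbistatin, and 0 higher and 1 lower with Y27632. Of the 6 pericyte and smooth muscle markers 5 were detected, at 85.43 to 95.07 CPM in DMSO, 107 to 118.2 CPM with blebbistatin and 93.3 to 115.1 CPM with Y27632. Cspg4 led this sum, with 1626 to 2138 unscaled reads in DMSO and 2288 to 3026 with blebbistatin, while Rgs5 had 73 to 102 and 61 to 76. Of these 5 markers, limma called 2 higher and 1 lower with blebbistatin, and 2 higher and 0 lower with Y27632. The part of these other cell types in the changes below was not tested, and in such bulk samples fewer cells of a type and less RNA per cell cannot be told apart.

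With blebbistatin, 7 of the 10 genes were called at a limma adjusted p under 0.05, 5 higher and 2 lower. In that comparison limma called 53.0% of the 14882 genes tested, 26.1% higher and 26.9% lower. With Y27632, 7 of 10 were called, 6 higher and 1 lower, beside 35.9% of 14833 genes tested, 18.1% higher and 17.8% lower. The values with and without inhibitor did not overlap for 7 of 10 genes in each comparison, beside 60.2% of all genes tested for blebbistatin and 48.1% for Y27632. Most of these changes were small. The median absolute log2 change of the 10 genes was 0.11 with blebbistatin and 0.13 with Y27632, against 0.22 and 0.15 over all genes tested. Both comparisons use the same DMSO libraries, so their values are set side by side and are not independent of each other. Blebbistatin and Y27632, at 10 µM and 30 µM, were also compared directly by edgeR over all 9 libraries. There 5 of 10 genes were called, 3 higher and 2 lower with blebbistatin, beside 53.1% of 14955 genes tested, 26.9% higher and 26.2% lower, and 6 of 10 did not overlap, beside 60.4% of all genes.

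**Figure D1:**
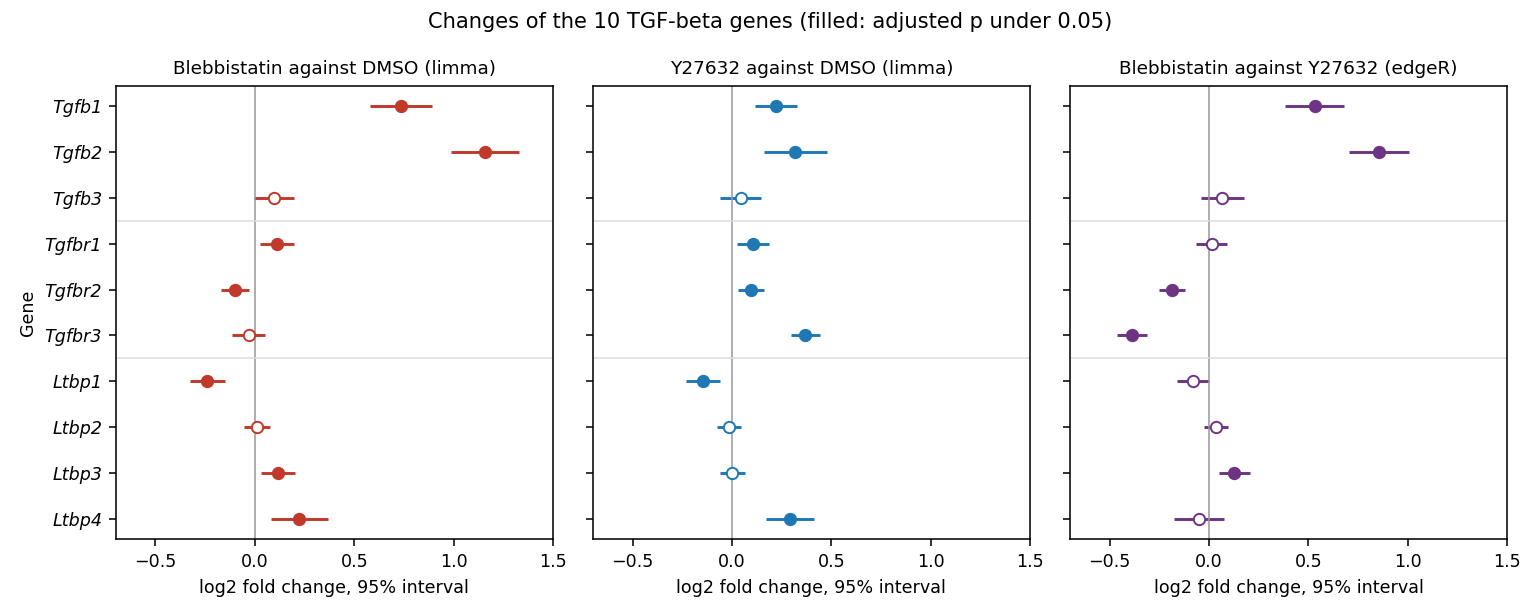
Log2 fold changes of the 10 genes (points) with 95% intervals (lines) for blebbistatin against DMSO, Y27632 against DMSO and blebbistatin against Y27632, grouped by ligands, receptors and latency proteins. Filled points were called at an adjusted p under 0.05, and Tgfb1 and Tgfb2 lie farthest to the right with blebbistatin, at 0.73 and 1.16.

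The ligand genes Tgfb1 and Tgfb2 rose with both inhibitors, and more with blebbistatin. Tgfb1 encodes the isoform most studied in fibrosis, and Tgfb2 encodes an isoform that is needed, together with Tgfb3, for tendons to form in the embryo. Tgfb1 rose 1.67-fold with blebbistatin and 1.17-fold with Y27632, and Tgfb2 rose 2.24-fold and 1.25-fold. Tgfb3, the isoform associated with embryonic tendon and with low-scar healing, was not called in any of the 3 comparisons.

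Because Tgfb1 and Tgfb2 were each called higher with both inhibitors, the 250 bases before their annotated starts are shown, from RefSeq with build GRCm38.p6. They are read 5′ to 3′ on the gene's own strand, and capitals mark matches on either strand to the GC box GGGCGG, the E-box CACGTG, the TATA box TATAAA or the cAMP response element core TGACG. The Tgfb1 promoter lies at chr7:25686752-25687001 on the plus strand and the Tgfb2 promoter at chr1:186705990-186706239 on the minus strand. The annotated span of Tgfb2 on that strand begins farther upstream, at 186709697, so this window lies inside it. The reference lists 1 promoter for Tgfb2, and the bases before 186709697 were not examined.
Tgfb1: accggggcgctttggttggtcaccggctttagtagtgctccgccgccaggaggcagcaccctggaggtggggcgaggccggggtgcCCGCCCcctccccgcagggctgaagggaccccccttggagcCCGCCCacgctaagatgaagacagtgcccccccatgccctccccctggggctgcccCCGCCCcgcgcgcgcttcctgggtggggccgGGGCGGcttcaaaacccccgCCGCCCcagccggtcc
Tgfb2: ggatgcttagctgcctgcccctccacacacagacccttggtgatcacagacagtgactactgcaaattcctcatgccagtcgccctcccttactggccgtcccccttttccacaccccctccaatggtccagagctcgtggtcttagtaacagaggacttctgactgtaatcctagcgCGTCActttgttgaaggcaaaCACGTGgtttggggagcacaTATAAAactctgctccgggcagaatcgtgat

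The stretches differ in composition. That of Tgfb1 had 75.2% G and C and 21 CG dinucleotides, and held 5 GC box matches, which begin 164, 123, 67, 36 and 16 bases before the start. That of Tgfb2 had 53.6% G and C and 8 CG dinucleotides, and held 1 TGACG match that begins 72 bases before the start, 1 CACGTG match at 51 and 1 TATAAA match at 31. The medians over 32851 mouse promoters of the same length were 52.4% G and C and 6 CG dinucleotides. Of these promoters, 32.7% held GGGCGG, 17.8% TGACG, 12.4% TATAAA and 6.02% CACGTG. These 4 motifs were looked for after the sequences had been read. The motifs of factors tied to mechanical and TGF-beta signalling were searched on both strands of the 12 promoters that the reference lists for 8 of the 10 genes, and had 0 matches. They were the TEAD core GGAATG (12.6% of all promoters), the AP-1 motif TGANTCA (6.75%), the palindromic SMAD motif GTCTAGAC (0.167%) and the SRF CArG box (1.47%). A match is a run of letters and not a binding site, and its absence concerns these letters in these windows only.

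Tgfb1 (chr7:25687002-25705077, GRCm38.p6) had normalised counts of 1100.1, 1039 and 1091 in the 3 DMSO libraries and 1865, 1973 and 1561 in the 3 blebbistatin libraries of the blebbistatin table. The groups did not overlap, and blebbistatin library 3 was the lowest of its group. The means were 1077 ± 33.0 and 1800 ± 214 (SD, n = 3), and the log2 change was 0.73 (SE 0.071, limma adjusted p = 2.85e-06). Of all genes tested, 6.93% had a higher log2 change. In the Y27632 table, which is scaled separately, Tgfb1 had 1144, 1079 and 1134 in DMSO and 1326, 1224 and 1367 with Y27632. Each Y27632 library lay above each DMSO library, by a smaller distance, with a log2 change of 0.22 (SE 0.049, limma adjusted p = 0.00350). Compared directly, Tgfb1 was higher with blebbistatin than with Y27632 by 0.53 on the log2 scale (SE 0.070, edgeR adjusted p = 1.87e-05).

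Tgfb2 (chr1:186622787-186709697) showed the largest log2 change of the 10 genes in the blebbistatin comparison. Its normalised counts were 401.1, 365.1 and 338.9 in DMSO and 794.6, 772 and 904.1 with blebbistatin. Every blebbistatin library lay far above every DMSO library. The means were 368 ± 31.2 and 824 ± 70.6 (SD, n = 3), the log2 change was 1.16 (SE 0.078, limma adjusted p = 9.48e-08), and 2.72% of genes tested had a higher change. With Y27632 the values were 459.3, 495 and 476.9, against 417, 379.1 and 352.2 in DMSO. These groups also did not overlap, and the log2 change was 0.32 (SE 0.072, limma adjusted p = 0.00397). The direct difference was 0.86 in favour of blebbistatin (SE 0.071, edgeR adjusted p = 1.88e-07). The calls of Tgfb1 and Tgfb2 in all 3 comparisons held under each of 15 alternative settings.

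Tgfb3 (chr12:86056743-86079041) had 2012, 1974 and 1926 normalised counts in DMSO and 1996, 2249 and 2085 with blebbistatin. The groups overlapped, and the log2 change was 0.10 (95% interval -0.00 to 0.20, limma adjusted p = 0.0943). Without blebbistatin library 1 it was 0.14 and was called (limma adjusted p = 0.0373). With Y27632 the counts were 2026, 2031 and 2284 against 2091, 2049 and 2002, again overlapping, with a log2 change of 0.04 (95% interval -0.06 to 0.15, limma adjusted p = 0.501). The interval of the direct difference ran from -0.04 to 0.18.

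**Figure D2:**
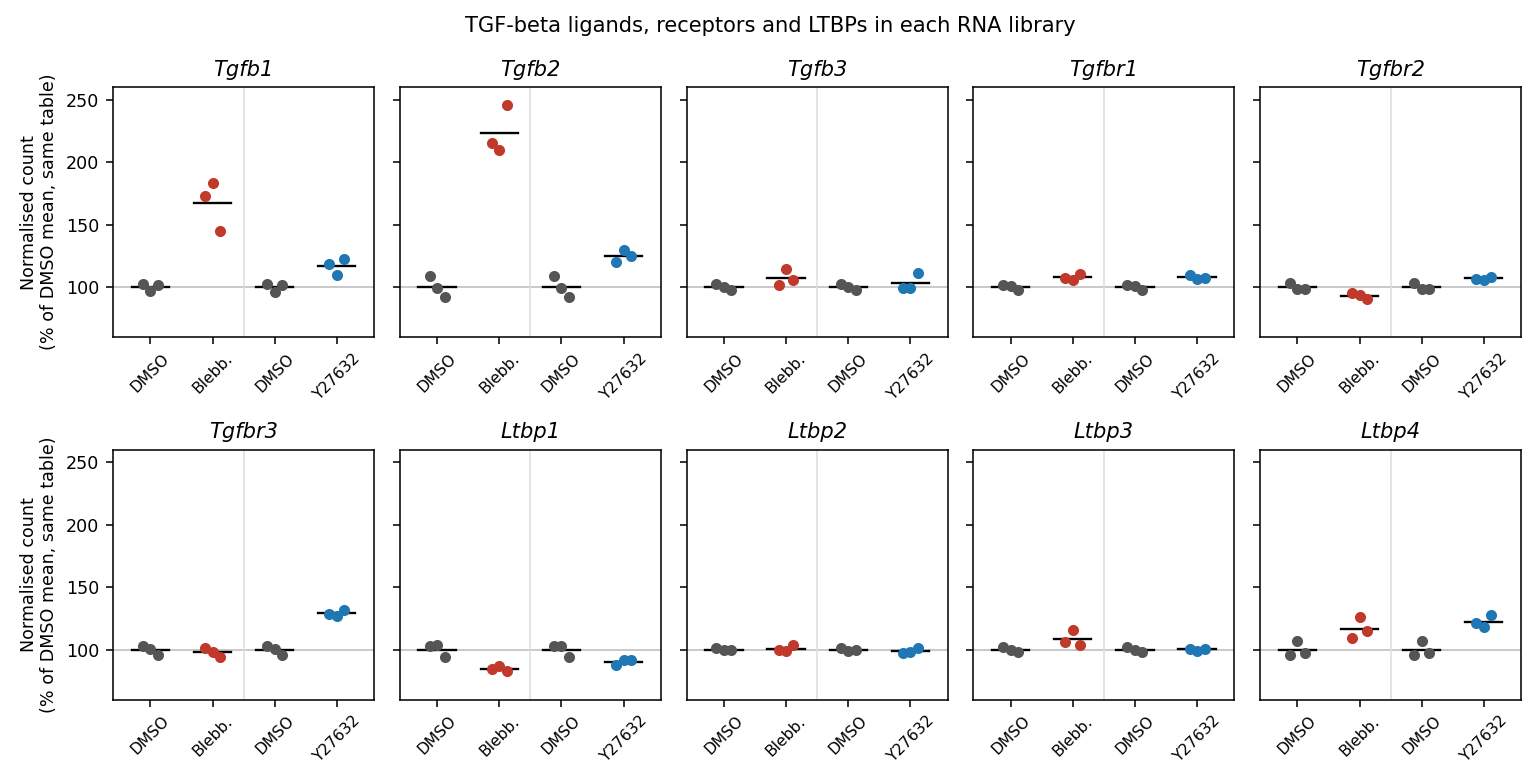
Normalised count of each of the 10 genes in each RNA library (points), as a percentage of the DMSO mean of the same table, with group means as bars. The DMSO libraries appear on both sides of a panel because both comparisons use them; Tgfb1 and Tgfb2 stand apart with blebbistatin, Tgfbr3 with Y27632, and Ltbp1 lies below DMSO in both.

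The genes whose pattern over the 9 RNA libraries most resembled that of each ligand were ranked by Pearson correlation. They were ranked among 11445 genes with a mean of at least 100 jointly scaled counts. Such a correlation does not compare the size of changes. The libraries share their treatments, so these values describe a common pattern and carry no test. For Tgfb1 the closest were B4galnt1, a ganglioside-synthesising enzyme (r = 0.994), Lgmn, a lysosomal cysteine protease (r = 0.989), and Bahd1 (r = 0.984), and 188 genes reached 0.95. For Tgfb2 they were Ttc23 (r = 0.996), Mettl7a1 (r = 0.995) and the lysosomal alpha-mannosidase Man2b1 (r = 0.994), and 520 genes reached 0.95. With blebbistatin the log2 changes of Ttc23, Mettl7a1 and Man2b1 were 0.27, 1.3 and 0.50. With Y27632, Ttc23 (0.07, limma adjusted p = 0.264) and Bahd1 (0.08, limma adjusted p = 0.112) were not called. For Tgfb3 they were Cdkn2a, a cell-cycle inhibitor locus (r = 0.914), 2810428I15Rik (r = 0.882) and Rrad (r = 0.878), and 0 genes reached 0.95.

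Among the receptors, Tgfbr3 rose with Y27632 and was not called with blebbistatin, while the log2 changes of the signalling receptors Tgfbr1 and Tgfbr2 lay between -0.10 and 0.11 in both comparisons. Tgfbr3 (chr5:107106567-107289629) encodes betaglycan, a co-receptor that presents ligand, TGF-beta 2 above all, to the signalling receptors. Its normalised counts with Y27632 were 20691, 20540.3 and 21303, against 16676, 16272 and 15474 in DMSO. The groups lay well apart, with means of 20845 ± 404 and 16141 ± 612 (SD, n = 3). Its log2 change was 0.37 (SE 0.033, limma adjusted p = 2.60e-06), and 7.97% of genes tested had a higher one. In the blebbistatin table Tgfbr3 had 15792, 15224 and 14598 with blebbistatin and 16041, 15674 and 14890.4 in DMSO. These values overlapped, and the log2 change was -0.03 (95% interval -0.11 to 0.05, limma adjusted p = 0.519). The direct difference was called, with Tgfbr3 lower with blebbistatin than with Y27632 by -0.39 on the log2 scale (SE 0.035, edgeR adjusted p = 4.27e-07).

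Tgfbr2 (chr9:116087695-116175363), the type II receptor, moved in opposite directions with the inhibitors. With blebbistatin it had 9777, 9609 and 9319 normalised counts against 10612, 10090.4 and 10088 in DMSO. Each blebbistatin library lay below each DMSO library, and the log2 change was -0.10 (SE 0.033, limma adjusted p = 0.0209). With Y27632 it had 11382, 11303 and 11530.1 against 11032, 10475 and 10484, above DMSO in every library. This gave a log2 change of 0.10 (SE 0.030, limma adjusted p = 0.0242). The direct difference was -0.19 (SE 0.030, edgeR adjusted p = 0.000112) and was called under every alternative, whereas the calls against DMSO were lost when some single libraries were left out. The blebbistatin call was lost without DMSO library 1 (log2 change -0.08, limma adjusted p = 0.0834) and without blebbistatin library 3 (log2 change -0.08, limma adjusted p = 0.0790). The Y27632 call was lost without DMSO library 2 or 3 or Y27632 library 1 or 3, with log2 changes of 0.08, 0.09, 0.10 and 0.09 and limma adjusted p of 0.0980, 0.0679, 0.0538 and 0.0801.

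Tgfbr1 (chr4:47353222-47414926), the type I receptor kinase, had 1630, 1612 and 1683 normalised counts with blebbistatin and 1545, 1529 and 1488 in DMSO. With Y27632 it had 1738, 1681 and 1691 against 1606, 1587 and 1546 in DMSO. Each treated library lay above each DMSO library of its table. Here the log2 change was 0.11 in both comparisons, with limma adjusted p of 0.0307 and 0.0374, but Tgfbr1 is not called in the authors' deposited tables, where the adjusted p is 0.114 and 0.127. The blebbistatin call was lost without DMSO library 2 or 3 or blebbistatin library 1 or 3, with log2 changes of 0.11, 0.09, 0.12 and 0.09 and limma adjusted p of 0.0634, 0.0884, 0.0613 and 0.103. The Y27632 call was lost without DMSO library 2 or 3 or any Y27632 library, with log2 changes of 0.11, 0.09, 0.09, 0.12 and 0.11 and limma adjusted p of 0.0756, 0.107, 0.123, 0.0585 and 0.0713. The inhibitors did not differ from each other beyond the spread between libraries, with a direct difference of 0.01 and a 95% interval of -0.06 to 0.09.

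The latency proteins split by gene. Ltbp1 fell with both inhibitors, Ltbp4 rose with both, Ltbp3 rose with blebbistatin, and Ltbp2 was not called. Ltbp1 (chr17:75005480-75392512) encodes the best-studied anchor of latent TGF-beta in the matrix. Its normalised counts were 5395, 5552 and 5276 with blebbistatin and 6563, 6604 and 6000.03 in DMSO, with no overlap. Group means were 5408 ± 139 and 6389 ± 338 (SD, n = 3), and the log2 change was -0.24 (SE 0.040, limma adjusted p = 0.000302). With Y27632 the counts were 5811, 6079.9 and 6095, below the DMSO values of 6823, 6856 and 6235. The log2 change was -0.15 (SE 0.039, limma adjusted p = 0.0110), and without DMSO library 2 it was -0.12 and was not called (limma adjusted p = 0.0586). The direct difference was -0.08 (95% interval -0.16 to 0.00, edgeR adjusted p = 0.0871). It was called without DMSO library 3 (-0.08, edgeR adjusted p = 0.0352) and without blebbistatin library 2 (-0.11, edgeR adjusted p = 0.0470). It was also called with no filter on low counts (-0.09, edgeR adjusted p = 0.0346) and with only the 6 treated libraries (-0.08, edgeR adjusted p = 0.0453).

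Ltbp4 (chr7:27305140-27339720) encodes a binding protein that also takes part in elastic fibre assembly. It had 704.3, 810.7 and 736.9 normalised counts with blebbistatin and 616.6, 686.1 and 623.8 in DMSO. The lowest blebbistatin library lay just above the highest DMSO library, and the log2 change was 0.22 (SE 0.065, limma adjusted p = 0.0123). Without DMSO library 1 it was 0.20 and was not called (limma adjusted p = 0.0513). With Y27632 the counts were 808.1, 790.8 and 850.1 against 641, 712.3 and 648.2 in DMSO, well apart. The log2 change was 0.29 (SE 0.056, limma adjusted p = 0.00135), and it was called under all 15 alternatives. The direct difference was -0.05, with a 95% interval of -0.18 to 0.08.

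Ltbp3 (chr19:5740900-5758536) encodes a binding protein known for its part in bone and tooth growth. With blebbistatin it had 11869, 12940.3 and 11615 normalised counts, each above the DMSO values of 11398, 11196 and 10979.9. The log2 change was 0.12 (SE 0.040, limma adjusted p = 0.0267). The call was lost without DMSO library 2 or 3 or blebbistatin library 2, with log2 changes of 0.12, 0.10 and 0.07 and limma adjusted p of 0.0676, 0.0703 and 0.102. With Y27632 the counts were 11714, 11518 and 11716 against 11849.8, 11623 and 11410.3 in DMSO, overlapping, and the log2 change was 0.00 (95% interval -0.06 to 0.06, limma adjusted p = 0.951). Ltbp3 was higher with blebbistatin than with Y27632 by 0.13 (SE 0.036, edgeR adjusted p = 0.00893). Without blebbistatin library 2 this difference was 0.07 and was not called (edgeR adjusted p = 0.0627).

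Ltbp2 (chr12:84783212-84876558) encodes the member of the family that is reported not to bind latent TGF-beta and that is found with fibrillin microfibrils. Its normalised counts were 12783, 12700.2 and 13297 with blebbistatin and 12964, 12743 and 12763 in DMSO. With Y27632 they were 12994, 13124 and 13472 against 13478, 13229 and 13263. The groups overlapped in both comparisons. The log2 change was 0.01 with blebbistatin (95% interval -0.05 to 0.08) and -0.01 with Y27632 (95% interval -0.08 to 0.05). In the RefSeq annotation 8 of the 10 genes overlap another gene, among them Tgfbr1 with the long non-coding gene Gm32435 over 32925 bp. Whether reads were counted by strand is not given in the sources used here.

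The rest of the pathway was described by 5 lists of genes, set out by role. The lists share some genes, so their counts and medians are not independent. Smad7, Skil and Pmepa1, each called lower with blebbistatin, stand in both the intracellular signalling and the response list. Fn1 stands in both the matrix partner and the response list. Of 18 intracellular signalling genes, limma called 12 lower and 1 higher with blebbistatin, beside 26.9% and 26.1% of all genes, and their median log2 change was -0.17 against 0.00 over all genes tested. With Y27632, 4 were called higher and 2 lower, beside 18.1% and 17.8% of all genes, with a median of -0.00. The receptor-activated SMAD genes differed. Smad2 fell with both inhibitors, by 0.60 with blebbistatin and by 0.14 with Y27632 on the log2 scale (SE 0.038 and 0.036, limma adjusted p = 5.15e-08 and 0.00813). Smad3 fell with blebbistatin by 0.21 (from 4427 ± 119 to 3835 ± 42.7 normalised counts, SD, n = 3) and rose with Y27632 by 0.48 (from 4599 ± 124 to 6405 ± 313). The limma adjusted p was 0.000186 and 9.31e-07. Smurf2, a ubiquitin ligase that targets the receptors and SMADs, changed by -0.46 with blebbistatin and by 0.29 with Y27632 (limma adjusted p = 3.42e-07 and 2.30e-05). Of the genes for SMAD inhibitors, Ski changed by -0.46 and -0.13 and was called in both (limma adjusted p = 2.76e-07 and 0.00469). Smad7, an inhibitory SMAD that TGF-beta itself induces, fell by 0.58 with blebbistatin (limma adjusted p = 6.63e-05). With Y27632 it had a log2 change of -0.16 that was not called (limma adjusted p = 0.0601). Tgif1, a SMAD co-repressor, rose by 0.52 and 0.19 (limma adjusted p = 3.17e-07 and 0.00212).

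Of 7 co-receptors and related receptors, limma called 3 with blebbistatin, 2 higher and 1 lower, beside 53.0% of all genes. With Y27632 it called 2, 1 higher and 1 lower, beside 35.9%. The median log2 changes were -0.00 and -0.07. Bambi, a decoy receptor, rose by 0.81 with blebbistatin (212 ± 18.3 normalised counts in DMSO and 372 ± 28.4 with blebbistatin, SD, n = 3), and had -0.13 with Y27632, not called. Cd109, a co-receptor that dampens TGF-beta signalling, rose by 0.43 with blebbistatin. With Y27632 its log2 change was 0.10, called by limma (adjusted p = 0.0381), and this call was lost under 7 of 15 alternatives. It was lost without DMSO library 3 or Y27632 library 2 or 3, where the change was 0.07, 0.09 and 0.09. The call was also lost with DESeq2 (DESeq2 adjusted p = 0.0626), without the trend in limma (limma adjusted p = 0.146) and with no filter on low values (limma adjusted p = 0.0554). Nrp1, a co-receptor for several ligands, fell by 0.56 with blebbistatin and had 0.07 with Y27632, not called. Acvrl1, the type I receptor also known as ALK1, fell by 0.29 with Y27632 and had -0.06 with blebbistatin, not called. The limma adjusted p of the called changes other than that of Cd109 with Y27632 ran from 3.90e-07 to 0.000215.

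Of 13 tested genes that release or carry latent TGF-beta, limma called 6 higher and 5 lower with blebbistatin, beside 26.1% and 26.9% of all genes. With Y27632 it called 8 higher and 2 lower, beside 18.1% and 17.8%. The median log2 changes were 0.07 and 0.18, against 0.00 over all genes tested in both comparisons. Itgb6, the other listed gene, had at most 3 reads in a library and was not tested. The integrin genes split: Itgav fell by 0.36 and 0.26 with blebbistatin and Y27632, and Itgb3, whose product pairs with that of Itgav, rose by 0.91 and 0.51. Lrrc32 encodes GARP, which holds latent TGF-beta at the cell surface. Its normalised counts were 17052 ± 357 in DMSO and 13358 ± 735 with blebbistatin, and 24450.1 ± 1624 with Y27632 beside a DMSO mean of 17717 ± 384 in that table (SD, n = 3). Lrrc32 thus had log2 changes of -0.35 and 0.46. Thbs1, whose product thrombospondin-1 can activate latent TGF-beta, fell by 2.31 and 0.41. The protease genes Mmp2 and Mmp14 rose by 0.92 and 1.18 with blebbistatin and by 0.39 and 0.31 with Y27632. All of these changes were called by limma, with adjusted p from 1.15e-11 to 4.15e-05.

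Of 11 tested matrix partners and extracellular binders, limma called 4 higher and 4 lower with blebbistatin, beside 26.1% and 26.9% of all genes. With Y27632 it called 4 higher and 1 lower, beside 18.1% and 17.8%. The median log2 changes were 0.04 and 0.03, against 0.00 over all genes. Adamtsl2, also listed, had at most 3 reads in a library and was not tested. Fbn1, which encodes the fibrillin that LTBPs attach to, fell by 0.39 with blebbistatin (SE 0.070, limma adjusted p = 0.000486). With Y27632 its log2 change was -0.19 and was not called (limma adjusted p = 0.0576), but without DMSO library 3 it was -0.29 and was called (limma adjusted p = 0.000465). The elastic fibre gene Fbln5 fell by 0.52 and 0.24. Of the 4 listed genes for small proteoglycans that bind TGF-beta, 3 rose with both inhibitors: Dcn by 0.28 and 0.31, Fmod by 0.25 and 0.66, and Aspn by 0.17 and 0.69. The other, Bgn, named outside the rule after its values were seen, fell by 0.15 with blebbistatin and had -0.04 with Y27632, not called. The limma adjusted p of these called changes ran from 5.24e-09 to 0.00847. Without the trend in limma, the Aspn change with blebbistatin was not called (limma adjusted p = 0.0723).

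Of 22 tested genes known to respond to TGF-beta, limma called 12 lower and 5 higher with blebbistatin, beside 26.9% and 26.1% of all genes, with a median log2 change of -0.19. With Y27632 it called 6 lower and 7 higher, beside 17.8% and 18.1%, with a median of 0.01. Over all genes tested the medians were 0.00. Tagln, also listed, had 2 to 15 reads in a library and was not tested. Ctgf, a matricellular growth factor gene, fell by 1.60 with blebbistatin and had a log2 change of -0.11 with Y27632, not called. Acta2, the smooth muscle actin of myofibroblasts, fell by 0.97 and 0.77. Other genes of the list moved upward: Tgfbi by 0.80 with blebbistatin, and Comp, a tendon and cartilage matrix gene, by 0.60 and 0.56. Tgfbi had 0.12 with Y27632, not called (limma adjusted p = 0.100), but without DMSO library 1 it was 0.17 and called (limma adjusted p = 0.0238). Junb, a fast-responding transcription factor gene, rose by 0.50 with blebbistatin and by 1.65 with Y27632. The limma adjusted p of the called changes named here ran from 6.13e-09 to 0.000516. Many of these genes also respond to other signals, and the level of active TGF-beta protein was not among the measurements.

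**Figure D3:**
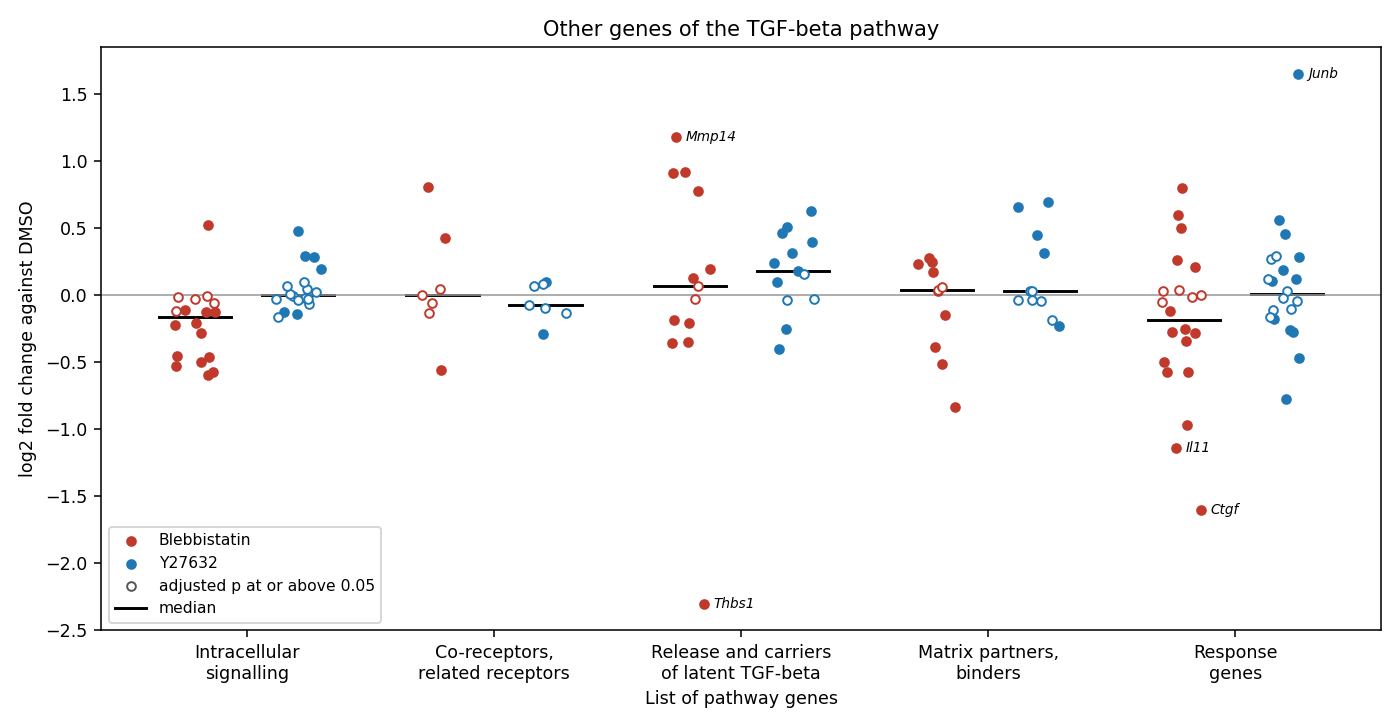
Log2 fold change against DMSO of genes in the 5 pathway lists, with blebbistatin (red) and Y27632 (blue), filled where the limma adjusted p was under 0.05, with the medians of all tested genes of a list as bars. Intracellular signalling and response genes have medians of -0.17 and -0.19 with blebbistatin and -0.00 and 0.01 with Y27632, and Mmp14, Thbs1, Il11, Ctgf and Junb are named in the plot. Smad7, Skil and Pmepa1 stand in both of these lists.

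The site lists give the authors' group means and folds and hold no values per library, so every site value is the authors' and carries no test here. They hold only sites that passed the authors' thresholds. ATAC with blebbistatin listed 1 site annotated to the 10 genes among 970, and ATAC with Y27632 listed 0 among 207. In the doxycycline experiment, blebbistatin without doxycycline listed 1 among 1231, doxycycline without blebbistatin 3 among 7613, and blebbistatin with doxycycline 4 among 6346. The directions were those of most sites in each of the authors' lists. The ATAC site under blebbistatin was lower (98.2% of that list lower, 1.75% higher), as were the site under blebbistatin without doxycycline (99.0% and 0.975%) and the 4 under blebbistatin with doxycycline (99.8% and 0.221%). The 3 sites under doxycycline were higher (4.15% of that list lower, 95.8% higher). The Y27632 list, with 0 such sites, had 85.0% lower and 15.0% higher. None of the 9 sites overlapped a site of another list, and none lay at a promoter, their distances to the annotated start being 5215 to 105313 bp. Tgfbr3, Ltbp3, Ltbp4 and Tgfb1 had 0 annotated sites.

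The ATAC site under blebbistatin lay in intron 5 of 29 of Ltbp1, at chr17:75256088-75256278 (mm10), 77402 bp after the annotated start nearest to it. That start lies inside the span of the gene, which begins farther upstream, at 75005480. The log2 group mean of the site in the authors' list was 6.03 in DMSO and 4.53 with blebbistatin, a log2 fold of -1.5 at an FDR of 0.0216. Ltbp1 RNA was also lower with blebbistatin, at a log2 change of -0.24. The authors' list marks a TEAD motif match in this site, as it does in 62.2% of the 970 sites, and gives it on the minus strand; the matched letters are shown as deposited, with the TEAD core in capitals.
Ltbp1 site: gggCATTCCt

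In the doxycycline experiment the sites of the ligand genes lay outside the spans of these genes. The authors' lists hold 1 intergenic site 13077 bp before the Tgfb2 start whose promoter is shown above (chr1:186719024-186719108). It had a log2 fold of -1.06 under blebbistatin with doxycycline. Tgfb2 RNA, measured without doxycycline, was higher with blebbistatin, at a log2 change of 1.16. All 3 sites annotated to Tgfb3 lay in introns of the neighbouring gene Ttll5. One of them had an authors' log2 fold of 1.23 under doxycycline (chr12:86036036-86036165), and the other two had -1.06 and -1.17 under blebbistatin with doxycycline (chr12:85973558-85973897 and chr12:86010813-86011011).

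Sites of the receptor genes were of 2 kinds. Those inside the genes were a site in intron 1 of 7 of Tgfbr2 (chr9:116161072-116161365) with an authors' log2 fold of 1.55 under doxycycline at an FDR of 3.41e-08, and a site in intron 8 of 8 of Tgfbr1 (chr4:47407198-47407575) with an authors' log2 fold of -1.0 under blebbistatin with doxycycline at an FDR of 3.58e-10. The other was annotated to Tgfbr1 but lay in an intron of Col15a1 (chr4:47300798-47300898), with an authors' log2 fold of 1.01 under doxycycline. Of the latency proteins, Ltbp2 had an intergenic site 5215 bp before its start (chr12:84881645-84881767), with an authors' log2 fold of -1.24 under blebbistatin without doxycycline at an FDR of 0.0114. The header of the doxycycline list names blebbistatin-only cells as its reference. At 13 sites that also stand in the other doxycycline-free list, the reference values lay -0.13 on average (SD 0.0044) from untreated cells and 1.12 (SD 0.184) from blebbistatin-only cells, so untreated cells were taken as the reference.

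**Figure D4:**
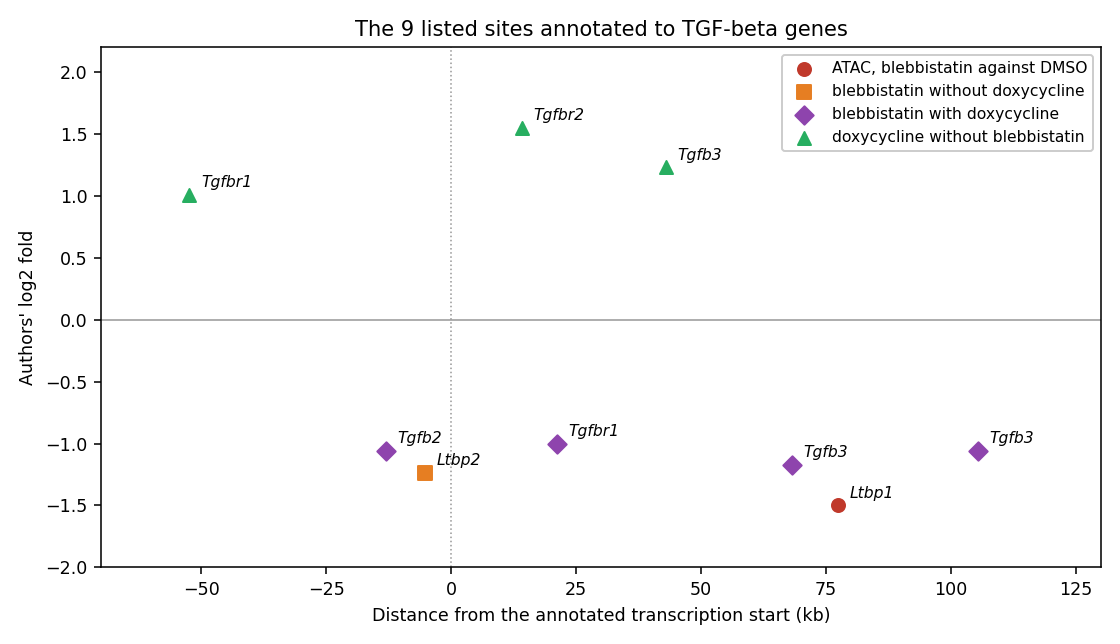
The 9 listed sites annotated to the 10 genes, by distance from the annotated transcription start (x axis, kb) and the authors' log2 fold (y axis), with a symbol for each list. The 3 doxycycline sites lie above 0 and the 6 blebbistatin sites below, and the nearest lies 5215 bp from a start.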

How the data were processed

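RNA, ATAC and doxycycline-experiment libraries were grouped by the labels. Per the submitters' processing notes, HISAT2, Picard, featureCounts, DESeq2, Bowtie2, SAMtools, MACS2, DiffBind and HOMER were used with build mm10; roles and settings are not given in the sources used here. The authors deposited the RNA values as a signal: gene read numbers scaled by library size factors, apart for each table (100% of values above 0 were whole multiples of 1 step, within 0.1 of a read). The log2 fold changes and p-values in the RNA tables, and the log2 means, log2 folds, p-value and FDR columns of the site lists, are the authors' own, per the file headers. Sample columns without a matching label numbered 0.

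Each inhibitor was tested against DMSO with limma 3.58.1 (trend, R 4.3.3) on log2(normalised count + 1), for genes with a mean of at least 10, with Benjamini-Hochberg adjustment over all genes tested and a threshold of 0.05. Fold changes are on that log2 scale. The inhibitors were compared with edgeR 4.0.16 (TMM, quasi-likelihood) on the recovered reads of 9 libraries; on such reads edgeR called 7924 genes for blebbistatin and 5354 for Y27632 against DMSO. DESeq2 1.42.0, other scalings, filters, pseudocounts, a replicate block and leaving out each library were alternatives. Intervals cover 95%. The scripts were tested on simulated counts. The reads of the DMSO libraries were identical in both tables (0 differing values over 35972 genes), and no libraries of a group were copies of each other (chi-square per degree of freedom 2.61 to 8.13). Libraries with equal replicate numbers did not deviate together (r from -0.084 to 0.048), so the numbers were not taken as pairs.

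The 10 genes and all lists were chosen with earlier results of these data known, and a list holding them is no independent evidence. Pathway genes named are, per list and inhibitor, the 2 highest and 2 lowest changes among called genes with a mean of at least 100; 1 gene that meets this rule is not reported here. Promoters are the 250 bases before RefSeq starts (GRCm38.p6; 8 of 10 genes matched). Deposited site distances fell within 1 bp of RefSeq starts for 9 of 9 sites. ATAC depth is unknown, since the lists hold group means only.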

Additional observations from a re-analysis of the deposited data

Results flagged for a closer look

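Among the 10 genes and the pathway genes named, 4 were called in opposite directions with the inhibitors, and the difference between blebbistatin and Y27632 was itself called by edgeR. The difference, blebbistatin minus Y27632 on the log2 scale, was -0.19 for the type II receptor gene Tgfbr2, -0.81 for Lrrc32, which encodes the latent TGF-beta carrier GARP, -0.67 for Smad3 and -0.74 for Smurf2, with edgeR adjusted p of 0.000112, 5.35e-09, 2.38e-09 and 1.02e-09. All 4 were lower with blebbistatin and higher with Y27632 than DMSO, though the Tgfbr2 calls against DMSO were lost under 3 of 15 alternatives with blebbistatin and 6 of 15 with Y27632. Pmepa1, a pathway gene outside the naming rule and chosen after its values were seen, was also called in opposite directions (-0.28 and 0.28), with a direct difference of -0.56 (edgeR adjusted p = 6.54e-07). Of 14683 genes tested in both comparisons, 3667 were called in both and 602 (4.10%) were called in opposite directions. The direct difference was called for all of these 602, so the edgeR calls above add no separate support. Of the 10 genes, only Tgfbr2 was among the 4. The pathway genes named were picked for their large called changes, so the count of 4 cannot be set against the share of 4.10%. The doses differed, at 10 µM and 30 µM, and both comparisons use the same DMSO libraries.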

How the results depend on the processing

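Of 30 results (10 genes in 3 comparisons), 16 kept their direction and their side of the threshold under all 15 alternatives, among them Tgfb1 and Tgfb2 throughout; 10 crossed the threshold and 4 changed sign. Of 81 results on other pathway genes, 73 held, 7 crossed and 1 changed sign. The cause of these changes was not tested. Without the trend in limma, 4 of the 10 genes were called with each inhibitor rather than 7, beside 7086 rather than 7894 of all genes with blebbistatin and 4128 rather than 5328 with Y27632. Leaving out 1 library, the count ran from 5 to 7 with blebbistatin (6994 to 7394 of all genes) and from 4, without DMSO library 2, to 7 with Y27632 (4304 to 4839 of all genes). With the replicate number as a block, 7604, 4633 and 7700 of all genes were called with blebbistatin, with Y27632 and between them, and 6, 5 and 5 of the 10 genes; the calls of Tgfbr1 with both inhibitors (limma adjusted p = 0.0598 and 0.0724) and of Tgfbr2 and Cd109 with Y27632 (0.0630 and 0.0735) were lost. Not every library correlated best with the library of its own number.

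Sign changes were limited to values near 0. Ltbp3 with Y27632 was -0.0013 by edgeR, -0.0034 with 9 libraries scaled together, and -0.0107, -0.0012 and -0.0013 without DMSO library 3, Y27632 library 1 and Y27632 library 3. Tgfb3 with Y27632 was -0.013 without Y27632 library 3, Ltbp2 with blebbistatin -0.0092 without blebbistatin library 3, and the direct difference was -0.0122 for Tgfbr1 without blebbistatin library 3 and -0.0063 for Comp without blebbistatin library 2. Leaving out 1 library in turn, these values reached 0.0165, 0.0734, 0.0239, 0.0301 and 0.1343 at the highest, in the same order of genes. At an FDR under 0.01, 0 sites annotated to the 10 genes were left in the ATAC blebbistatin list and 0 in that of blebbistatin without doxycycline.

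The 3 libraries per group limit the precision of changes near 0.1 on the log2 scale, and the site lists hold no values per library, so sites outside the authors' thresholds cannot be described.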

Other observations

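Of the listed sites, 6 lay within the span of one of the 10 genes, and 3 of these are annotated by the authors to the start of another gene. A site inside Tgfbr3 (chr5:107119987-107120208) is annotated to Cdc7 in the authors' list, 155537 bp away, with a log2 fold of -1.13 under blebbistatin with doxycycline. Within Ltbp2, toward its end, 2 sites are annotated to Isca2 in the authors' lists. One (chr12:84795035-84795133) has a log2 fold of 1.04 under doxycycline, and the other (chr12:84794681-84794932) has -1.05 under blebbistatin with doxycycline.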
